A study of Mus musculus with 12 samples.

Results

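This section describes 10 genes that govern the G1 phase of the cell cycle in 12 mouse samples measured on 2-colour spotted arrays. They are the D-type cyclins Ccnd1, Ccnd2 and Ccnd3, their kinases Cdk4 and Cdk6, the kinase inhibitors Cdkn1a, Cdkn1b and Cdkn2c, and the pocket proteins Rb1 and Rbl1. All spots with 1 gene symbol that matched one of these names were taken, which gave 11 spots of 22138 and 10 genes of 15081 named by 1 symbol. The 10 genes were chosen by their role in G1 with earlier values of NLS minus WT and of 1GH minus 0GH from these same arrays in view. Their differences in those comparisons are therefore given as a description. Adjusted p-values printed for them come from the test over all spots and are not read as a test of the chosen genes.

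In G1, growth signals raise D cyclins, which bind CDK4 or CDK6. The active kinases phosphorylate the retinoblastoma protein and its relatives, which then release E2F factors that switch on genes of DNA synthesis. Inhibitors of the INK4 family bind CDK4 and CDK6, and p21 and p27 act on cyclin and kinase complexes. The growth hormone (GH) receptor signals through JAK2 and STAT5, and a fraction of receptor can enter the nucleus.

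Each sample was labelled in Cy3 and hybridised against an embryonic reference RNA from Ambion in Cy5. The titles give 4 groups of 3 arrays, NLS 1GH, NLS 0GH, WT 1GH and WT 0GH, with letters b, c and d. NLS is the usual abbreviation of a nuclear localization signal, and WT of wild type, in a series titled for the nuclear growth hormone receptor. All 12 samples list human growth hormone at 100 ng/ml, so the 0GH samples carry that label too, and the 0 and the 1 have no unit, although the descriptions call the experiment a time course. Every title also holds a 10 that the labels do not explain. The labels name no cell type, no promoter driving either receptor form and no clone. They do not say whether the letters are separate cultures, so any p-value weighs a difference only against the spread between these samples.

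A level is here the log2 ratio of a sample to the reference minus the median of its array, so 0 is the middle of the array and not equality with the embryo. The sign was inferred, since the numerator of the deposited ratio is unstated. The deposited values put 42 of 47 embryo-tissue genes above the array median, so all values were multiplied by -1, and the reference is likely the deposited numerator. Under the opposite reading every sign below would turn. Per array, 15939 to 19700 spots had a value, and 12.5% to 29.2% of gene spots had none. Of the marker lists, erythroid and megakaryocyte genes had a median level of 0.31, B lymphoid -0.15 (7 spots above 0 and 7 below), mast cell and basophil -0.81, T lymphoid -1.15, myeloid -2.29, fibroblast -2.70, epithelial -3.79 and hepatocyte -4.79. These levels name no cell type. In bulk RNA, fewer cells of a type and less RNA per cell cannot be told apart.

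The starts of Ccnd3, Cdkn1a and Rbl1 are printed because the first pair are the genes whose groups separated in the values below and the last holds the single E2F match found. Each line gives 60 bases before and 20 bases from the transcription start listed by RefSeq on GRCm38.p6, 5′ to 3′ on the gene's strand. The first start of Cdkn1a holds no match and has no capitals. Capitals mark GGGCGG or its reverse complement CCGCCC (a GC box), and in Rbl1 TTTCGCGC.
Ccnd3, first start, chr17:47504991-47505070, plus strand: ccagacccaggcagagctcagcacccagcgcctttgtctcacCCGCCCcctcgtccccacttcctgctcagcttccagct
Ccnd3, next start, chr17:47593407-47593486, plus strand: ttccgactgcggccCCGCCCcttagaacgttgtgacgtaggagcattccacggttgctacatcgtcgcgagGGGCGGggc
Cdkn1a, first start, chr17:29090919-29090998, plus strand: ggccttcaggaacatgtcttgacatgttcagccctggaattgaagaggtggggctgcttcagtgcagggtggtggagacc
Cdkn1a, next start, chr17:29093709-29093788, plus strand: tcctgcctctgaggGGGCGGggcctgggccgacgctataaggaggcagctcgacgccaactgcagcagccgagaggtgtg
Rbl1, chr2:157204515-157204594, minus strand: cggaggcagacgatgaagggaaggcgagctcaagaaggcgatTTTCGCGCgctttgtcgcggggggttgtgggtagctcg

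The table of promoters held 10 windows of 300 bases for 7 of the genes, and it was searched on both strands for 3 motifs. The STAT-type motif TTCNNNGAA was in 0 of the 10 windows and in 8.3% of 32851 mouse windows of that length. The E2F-type motif, TTTCGCGC or TTTGGCGC, was in 1 of the 10, that of Rbl1, and in 0.8% of all. The GC box was in 7 of the 10 and in 35.7% of all, and no matches of different motifs overlapped. These are matches of letters and not binding sites, and a window without them says nothing of the factor.

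Of the 11 spots, 9 spots of 8 genes had at least 2 values in each group and entered the fit, while those of Ccnd1 and Cdkn1b did not. The highest levels were those of the pocket protein and INK4 genes. Rb1, which encodes the retinoblastoma protein, had a mean level of 2.30 ± 1.05 (SD, 11 arrays), above 0 on 11 of 11. Cdkn2c, the INK4 inhibitor p18, had a mean level of 1.93 ± 0.45 (SD, 12 arrays) and Rbl1, encoding the pocket protein p107, one of 1.21 ± 0.58 (SD, 12 arrays), each above 0 on 12 of 12. Their median percentile among the gene spots of an array was 90.7 for Rb1, 89.7 for Cdkn2c and 81.6 for Rbl1. These are ratios to embryonic RNA, so they set no gene's abundance against another's.

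Cdk6 had a mean level of 0.60 ± 0.59 and Cdk4 of 0.25 ± 0.70 (SD, 12 arrays each). Ccnd3 at 0.02 ± 0.75, Cdkn1a at -0.12 ± 1.56 and the Ccnd2 spot made from AK011429 at -0.28 ± 1.24 lay around the array median. The lowest levels were those of Ccnd1, with a mean of -4.85 ± 2.93 over 6 arrays, and of Cdkn1b, with -5.17 ± 2.30 over 4 arrays, at median percentiles of 5.2 and 5.4. These low spots are also the ones most often without a value, so their means cover only the arrays that gave one.

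**Figure D1:**
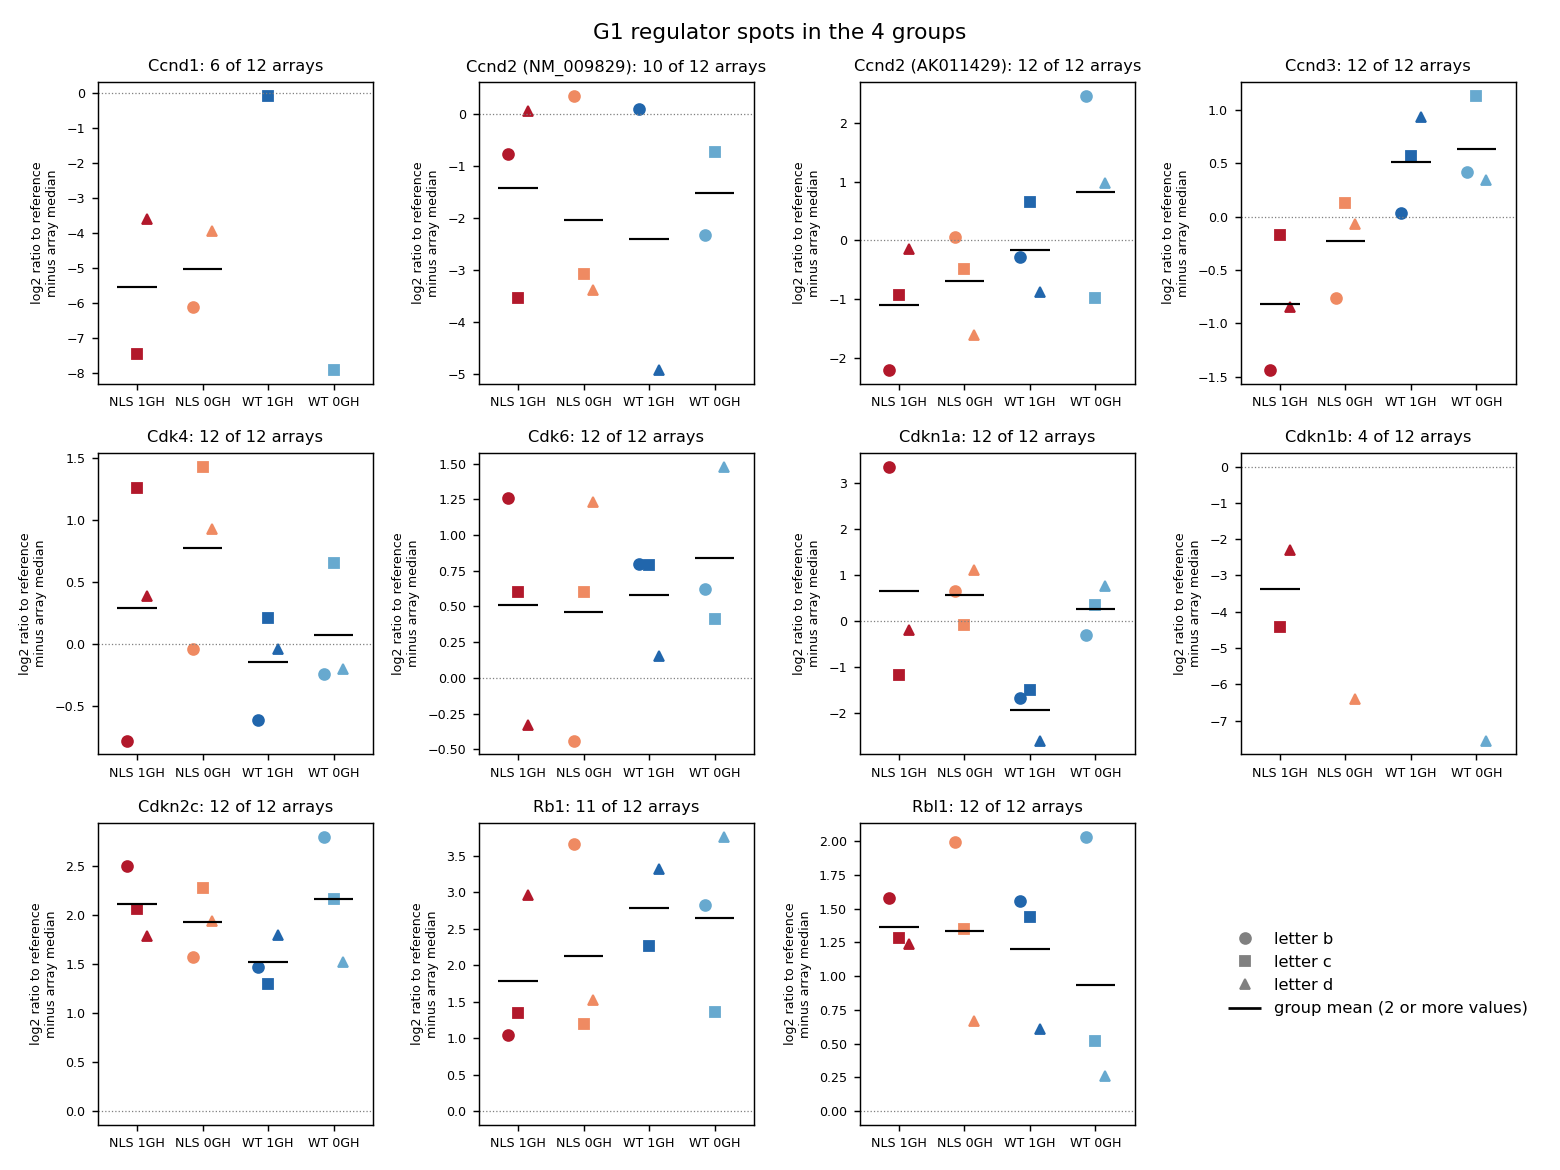
Levels of the 11 G1 regulator spots on each array (y axis, log2 ratio to the embryonic reference minus the array median; scales differ between panels) in NLS 1GH, NLS 0GH, WT 1GH and WT 0GH (x axis), with a symbol per replicate letter, a line at each group mean of 2 or more values and a dotted line at the array median. Cdkn2c, Rb1 and Rbl1 lie above 0 on every array that gave a value, Ccnd1 and Cdkn1b below 0, and for Ccnd3 the NLS arrays lie below the WT arrays of the same GH number.

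Among the D cyclins, Ccnd3 (Entrez 12445, chr17:47505051-47599689, GRCm38.p6) was lower in the NLS arrays. It encodes cyclin D3, the D cyclin on which much lymphoid proliferation depends in mice. Its levels were -1.44, -0.17 and -0.85 in NLS 1GH b, c and d, against 0.03, 0.57 and 0.93 in WT 1GH. At 0GH they were -0.76, 0.13 and -0.07 in NLS, against 0.42, 1.13 and 0.34 in WT. Within each GH number all 3 NLS arrays were below all 3 WT arrays. The NLS value was therefore also the lower one in 6 of 6 pairs of the same letter. How many of all tested spots separate in this way at both GH numbers was not counted. Across both GH numbers the 6 and 6 arrays overlapped, since NLS 0GH c, at 0.13, was above WT 1GH b, at 0.03.

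The fitted NLS minus WT difference of Ccnd3 was -1.33 (SE 0.50, 95% interval -2.44 to -0.22) at 1GH, on the log2 scale. At 0GH it was -0.86 (SE 0.50), with a 95% interval of -1.97 to 0.24 that includes 0. Averaged over both it was -1.10 (SE 0.35, 95% interval -1.88 to -0.31) on 12 arrays. These intervals are not adjusted for the choice of the gene with these data in view, so they are no test of it. From low to high, the group means were -0.82 ± 0.63 in NLS 1GH, -0.23 ± 0.47 in NLS 0GH, 0.51 ± 0.45 in WT 1GH and 0.63 ± 0.44 in WT 0GH (SD, n = 3 each). The NLS means differed from each other by less than the SD of NLS 1GH but by more than that of NLS 0GH. The WT means differed by less than either WT SD, while the step between NLS 0GH and WT 1GH exceeded the SD of both.

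Of 7 tested spots for markers of erythroid and megakaryocyte cells, 6 had lower values in NLS averaged over both GH numbers, the direction of Ccnd3, and 0 passed in limma. Their median difference was -0.97, beside -0.05 over all tested spots, of which 46.8% were higher. The mean level of the 4 marker spots with a value on all 12 arrays was -0.29 to 0.17 on the NLS arrays and 0.15 to 0.70 on the WT arrays, ranges that barely overlap. Spots lower in NLS were also 8 of 12 for B lymphoid markers (median -0.09) and 5 of 8 for T lymphoid (-0.21). They were 6 of 8 for myeloid (-0.14), 6 of 9 for hepatocyte (-0.11) and 8 of 13 for fibroblast markers (-0.08). Epithelial markers had 3 of 5 lower (-0.11), and mast cell and basophil markers 4 of 8 (0.0). The part of any of these cell types in the Ccnd3 difference was not tested.

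Ccnd2 (Entrez 12444, chr6:127125162-127152188), the cyclin D2 gene and a known mitogen-responsive D cyclin, had 2 spots that did not run alike. The spot made from AK011429 had levels of -2.21, -0.93 and -0.14 in NLS 1GH, against -0.28, 0.66 and -0.87 in WT 1GH. At 0GH it had 0.05, -0.49 and -1.61 in NLS, against 2.46, -0.98 and 0.97 in WT. The groups overlapped at both GH numbers, with NLS lower in 4 of 6 letter pairs, and the averaged NLS minus WT difference was -1.21 (SE 0.64).

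The Ccnd2 spot made from NM_009829 had levels of -0.77, -3.55 and 0.05 in NLS 1GH, against 0.10 and -4.93 in WT 1GH b and d. The 0GH values were 0.34, -3.09 and -3.38 in NLS, against -2.33 and -0.73 in WT b and c. Each group spanned more than the gap between group means, and NLS was lower in 2 of 4 letter pairs. Its averaged NLS minus WT difference was 0.24 (SE 1.28), fitted on 10 arrays, so the pair of Ccnd2 spots differed in sign.

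Ccnd1 (Entrez 12443, chr7:144929931-144939831), the cyclin D1 gene, gave a value on 6 of 12 arrays. These were -7.46 and -3.59 in NLS 1GH c and d, -6.11 and -3.94 in NLS 0GH b and d, -0.09 in WT 1GH c and -7.91 in WT 0GH c. With 1 value in each WT group no difference was fitted, and the lone WT 1GH value was the highest of the 6. It came from WT 1GH c, which had 19.2 bases per green dye, against 12.8 to 16.0 on the other arrays.

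Of the kinases, Cdk4 (Entrez 12567, chr10:127063535-127067288) had levels of -0.78, 1.26 and 0.39 in NLS 1GH b, c and d, against -0.61, 0.21 and -0.04 in WT 1GH. In the 0GH samples it had -0.04, 1.43 and 0.93 in NLS, against -0.24, 0.65 and -0.20 in WT. Cdk4 was higher in NLS in 5 of 6 letter pairs, but the groups overlapped, and letter b was the lowest array in all 4 groups. The averaged NLS minus WT difference was 0.57 (SE 0.44), which is within 2 SE. With the letter as a fixed block it was 0.57 (SE 0.28), about 2 SE, at a limma adjusted p of 0.658. With green dye incorporation as a covariate the average was 0.18, and the difference at 1GH was -0.29, against 0.43 in the main fit.

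Cdk6 (Entrez 12571, chr5:3341004-3531008), the partner kinase of Cdk4, had levels of 1.26, 0.60 and -0.33 in NLS 1GH, against 0.80, 0.79 and 0.15 in WT 1GH. At 0GH it had -0.44, 0.60 and 1.23 in NLS, against 0.62, 0.41 and 1.48 in WT. The groups overlapped throughout, and the averaged NLS minus WT difference of -0.22 was smaller than its SE of 0.42.

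Among the inhibitors, Cdkn1a (Entrez 12575, chr17:29090979-29100722) had the widest spread of those with 12 values. It encodes p21, which is transcribed in response to p53 and other signals and restrains cyclin and CDK complexes. Its levels were 3.35, -1.19 and -0.20 in NLS 1GH b, c and d, against -1.68, -1.51 and -2.61 in WT 1GH. At 0GH they were 0.64, -0.09 and 1.11 in NLS, against -0.32, 0.35 and 0.75 in WT. The 3 WT 1GH arrays were thus the lowest of all 12, with no overlap with NLS 1GH or with WT 0GH, while the NLS and WT arrays of 0GH overlapped.

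The NLS minus WT difference of Cdkn1a was 2.59 (SE 1.0) at 1GH and 0.29 (SE 1.0) at 0GH. The value at 1GH rests in part on the array NLS 1GH b and was 1.24 without it. With green dye incorporation as a covariate the value was 4.16; the array WT 1GH c had 19.2 bases per dye, against 12.8 to 16.0 on the other arrays. The group means were 0.65 ± 2.39 in NLS 1GH, 0.55 ± 0.60 in NLS 0GH, -1.93 ± 0.59 in WT 1GH and 0.26 ± 0.54 in WT 0GH (SD, n = 3 each). The step between WT 1GH and WT 0GH exceeded the SD of both, and the other neighbouring means differed by less than the SD of either group.

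Cdkn2c (Entrez 12580, chr4:109660876-109666756) had levels of 2.50, 2.06 and 1.78 in NLS 1GH, against 1.47, 1.29 and 1.79 in WT 1GH. The 0GH values were 1.57, 2.27 and 1.94 in NLS, against 2.79, 2.16 and 1.52 in WT. It was the most even of the spots with 12 values, its groups overlapped, and its averaged NLS minus WT difference was 0.18 (SE 0.32). Cdkn1b (Entrez 12576, chr6:134920401-134925525), encoding p27, gave -4.43 and -2.31 in NLS 1GH c and d, -6.39 in NLS 0GH d and -7.55 in WT 0GH d, with no value on any WT 1GH array.

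Of the pocket proteins, Rb1 (Entrez 19645, chr14:73192858-73325951) had levels of 1.05, 1.34 and 2.97 in NLS 1GH, against 2.26 and 3.32 in WT 1GH c and d. At 0GH it had 3.67, 1.19 and 1.53 in NLS, against 2.83, 1.36 and 3.76 in WT. It was lower in NLS in 4 of 5 letter pairs with overlapping groups, at an averaged difference of -0.76 (SE 0.68, 11 arrays).

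Rbl1 (Entrez 19650, chr2:157145893-157204534) had levels of 1.58, 1.28 and 1.24 in NLS 1GH, against 1.56, 1.44 and 0.61 in WT 1GH. In the 0GH samples it had 1.99, 1.35 and 0.67 in NLS, against 2.03, 0.52 and 0.26 in WT. NLS and WT overlapped at both GH numbers, and the averaged NLS minus WT difference was 0.28 (SE 0.41).

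**Figure D2:**
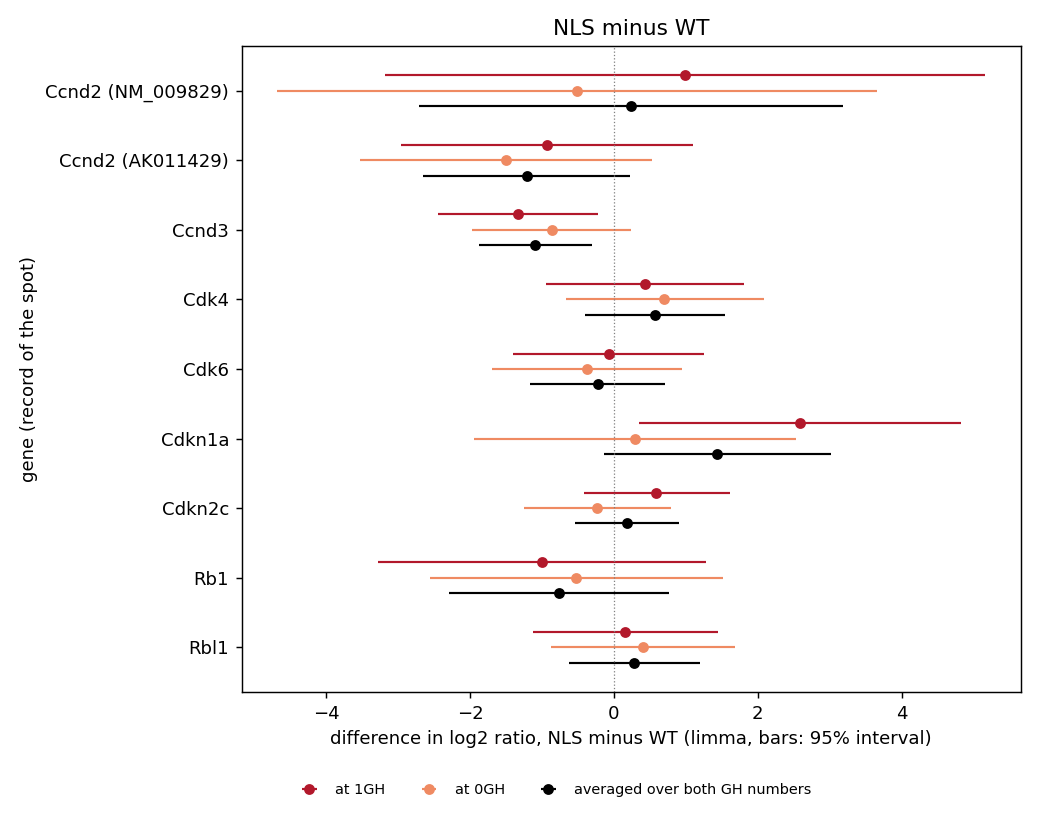
NLS minus WT differences of the 9 fitted spots (x axis, log2 units, with bars for the 95% interval of the limma fit) at 1GH, at 0GH and averaged over both. Ccnd3 lies below 0 at both GH numbers, Cdkn1a lies furthest above 0 at 1GH with 2.59, and the Ccnd2 spots fall on opposite sides of 0 in the average, at -1.21 and 0.24.

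**Figure D3:**
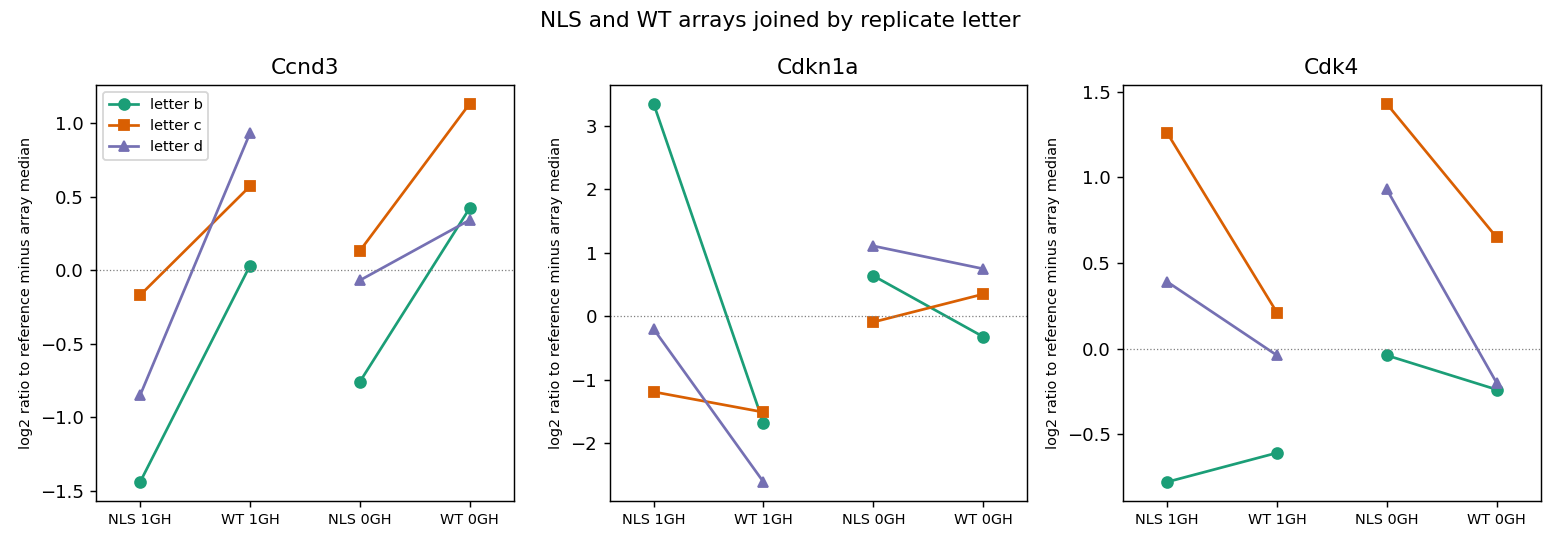
Levels of Ccnd3, Cdkn1a and Cdk4 (y axis, log2 ratio to the reference minus the array median) with a line joining the NLS and the WT array of the same letter at 1GH and at 0GH (x axis). All 6 Ccnd3 lines run upward to WT, while 5 of 6 lines of Cdkn1a and of Cdk4 run downward.

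Across all 16063 spots tested with limma and Benjamini-Hochberg adjustment, 0.0% passed the threshold of 0.05 for NLS minus WT at 1GH, 0.0% at 0GH and 0.00623% in the average, which is 1 spot. That spot was Ms4a6d, a member of the membrane-spanning 4A family, with a difference of -5.37 (SE 0.46, 10 arrays, adjusted p = 0.041 in limma). Its missing values were those of NLS 1GH b and NLS 0GH b, so the NLS side rests on letters c and d. The count became 0 with the letter as a fixed replicate block and was 1 with it as a random block. At an unadjusted p under 0.05 there were 572 spots at 1GH, 836 at 0GH and 897 in the average. None of the 9 G1 regulator spots passed, and the lowest limma adjusted p for NLS minus WT among them was 0.843, for Ccnd3 in the average.

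Groups that do not overlap are common in a design of 3 against 3. The shares over all tested spots also cover spots with 2 values in a group, which separate more easily. Ccnd3 and Cdkn1a had a value on all 12 arrays. At 1GH, 2 of the 9 spots, Ccnd3 and Cdkn1a, had NLS and WT groups without overlap, beside 11.1% of all tested spots. At 0GH, 1 of 9 did, Ccnd3, beside 12.4% of all. Over the 6 NLS and 6 WT arrays of both GH numbers it was 0 of 9, beside 0.859% of all. Over the 9 spots, 5 averaged NLS minus WT differences were positive and 4 negative, with a median of 0.18, beside -0.05 over all tested spots.

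The other comparison, 1GH minus 0GH, asks how the genes differ with the number before GH in the titles. Among the 9 fitted spots, Cdkn1a in WT had the difference furthest from 0. Its levels there were -1.68, -1.51 and -2.61 in WT 1GH, against -0.32, 0.35 and 0.75 in WT 0GH, lower in 3 of 3 letters and without overlap. In NLS the letters differed in sign, at 2.71 for b, -1.10 for c and -1.31 for d. The fitted difference was 0.10 (SE 1.0) in NLS and -2.19 (SE 1.0, 95% interval -4.43 to 0.04) in WT. The difference between these, the interaction, was 2.30 (SE 1.42), with an adjusted p of 1 from limma. Without the array NLS 1GH b the NLS difference was -1.25 and the interaction 0.95, and with green dye incorporation as a covariate the interaction was 3.75.

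Among the D cyclins, the 1GH minus 0GH difference of Ccnd3 was -0.59 (SE 0.50) in NLS and -0.12 (SE 0.50) in WT, with the 1GH array lower in 5 of 6 letter pairs and the groups overlapping in both forms. That of Ccnd2 was -0.41 (SE 0.91) in NLS and -0.98 (SE 0.91) in WT at the AK011429 spot. At the NM_009829 spot it was 0.62 (SE 1.62) in NLS and -0.88 (SE 1.98) in WT. None of these exceeded 2 SE. Ccnd1 had 1 letter pair in each form, with 1GH above 0GH by 0.36 in NLS d and by 7.83 in WT c, and Cdkn1b had 1 pair, with 1GH above 0GH by 4.08 in NLS d. With so few values these were not fitted, and the 7.83 rests on WT 1GH c, the array with 19.2 bases per green dye.

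Averaged over both receptor forms, the 1GH minus 0GH differences were -0.35 (SE 0.44) for Cdk4, -0.11 (SE 0.42) for Cdk6 and -0.23 (SE 0.32) for Cdkn2c. Those of the pocket proteins were -0.10 (SE 0.68) for Rb1 and 0.15 (SE 0.41) for Rbl1. Cdkn2c had its lower values in WT 1GH, with a difference of -0.64 (SE 0.46) in WT and 0.19 (SE 0.46) in NLS. Each of these is within 2 SE.

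**Figure D4:**
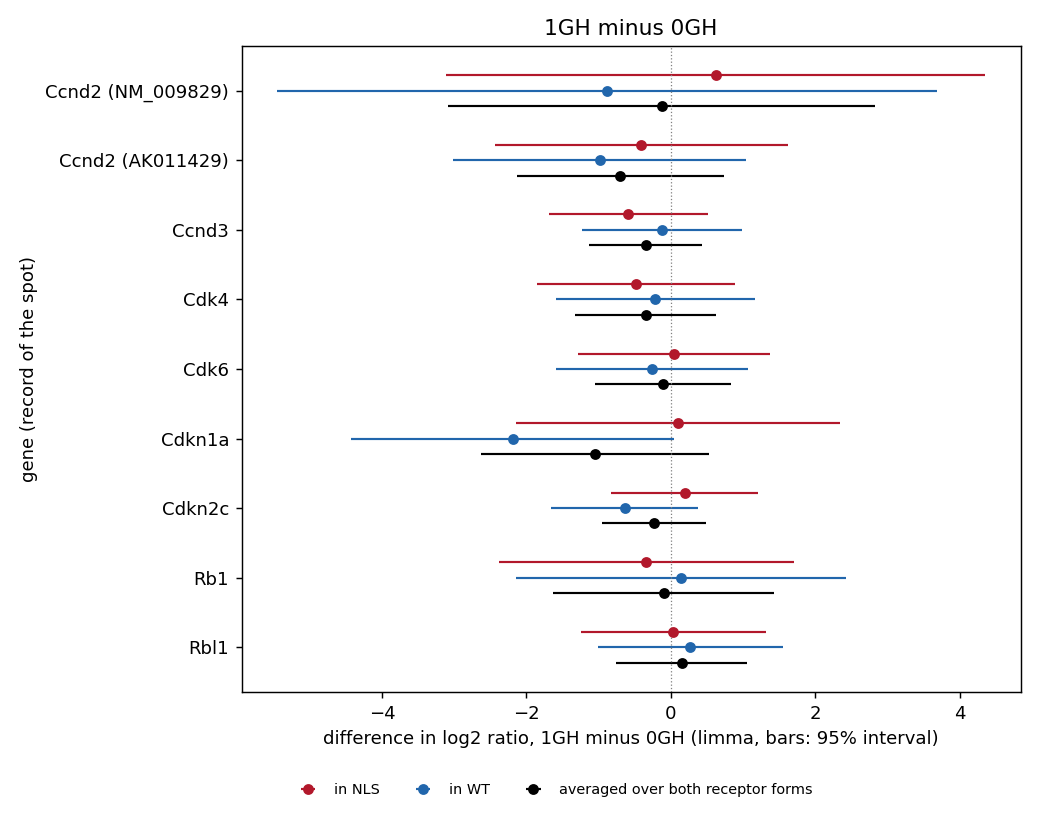
1GH minus 0GH differences of the 9 fitted spots (x axis, log2 units, with bars for the 95% interval of the limma fit) in NLS, in WT and averaged over both receptor forms. Cdkn1a in WT lies furthest from 0, at -2.19, with a bar from -4.43 to 0.04. The bars of all 9 spots include 0, and those of the NM_009829 spot of Ccnd2 are the widest.

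For 1GH minus 0GH, 0.0% of all 16063 spots passed in limma in NLS, 0.0% in WT, 0.0% in the average and 0.0% in the interaction, with 564, 464, 528 and 480 spots at an unadjusted p under 0.05. Of the 9 G1 regulator spots 0 passed in any of these. Groups without overlap were found for 0 of 9 spots in NLS, beside 11.0% of all, and for 1 of 9 in WT, Cdkn1a, beside 8.03% of all. With both receptor forms together it was 0 of 9, beside 0.243% of all. As above, the shares over all also cover spots with 2 values in a group. Of the 9 averaged differences 8 were negative and 1 positive, with a median of -0.23, beside 0.01 over all tested spots.

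The other genes of the pathway were taken from 8 lists, and none of their spots passed in limma in any of the comparisons. Of the 8 tested spots of the cyclin E, cyclin A and CDK2 arm, 3 were higher in NLS in the average, with a median of -0.15. Of 5 spots for the other CDK inhibitors and pocket proteins 2 were higher (median -0.32), and of 7 spots for E2F and DP factors 5 were (median 0.39). Turnover genes of G1 cyclins and inhibitors had 10 of 16 spots higher (median 0.33), and regulators of D cyclin transcription 3 of 8 (median -0.45). The E2F targets of S phase entry had 12 of 22 spots higher (median 0.10), the G2 and mitosis genes 7 of 11 (median 0.10), and the p53 targets, which include genes induced alongside Cdkn1a, 3 of 10 (median -0.22). Over all tested spots 46.8% were higher, with the median of -0.05 given above.

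Single pathway genes are named by the rank of their unadjusted p and not as changes. In NLS minus WT averaged, those with the smallest unadjusted p on the higher side were E2f5, an E2F factor bound by pocket proteins, at 1.52 (SE 0.54, 11 arrays), and the replicative helicase genes Mcm5 at 0.76 (SE 0.37) and Mcm7 at 0.65 (SE 0.34). On the lower side they were Cdkn2d, Foxo3 and Tfdp2. Cdkn2d, the INK4 inhibitor p19, was at -1.37 (SE 0.51), with levels of -1.65 to 0.85 in NLS and 0.22 to 2.10 in WT. Foxo3, a forkhead factor that restrains D cyclin transcription, was at -0.63 (SE 0.31) and Tfdp2, a DP partner of E2F, at -0.52 (SE 0.26). The limma adjusted p was 0.843 or higher for each of these.

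In 1GH minus 0GH averaged, Ccndbp1, a cyclin D1 binding protein gene, was at 2.45 (SE 0.77, 10 arrays) and the cyclin A1 gene Ccna1 at 1.79 (SE 0.79, 11 arrays). Pmaip1, the p53 target encoding NOXA, was at 0.87 (SE 0.53). The S phase genes Mcm3 at -1.93 (SE 0.81), Mcm6 at -0.94 (SE 0.41) and Rpa2 at -1.96 (SE 0.92, 10 arrays) were named on the lower side. Of the 22 spots of E2F targets 16 were lower at 1GH in the average, with a median of -0.14, beside 50.9% of all tested spots higher and a median of 0.01. Spots higher at 1GH were 5 of 8 in the cyclin E, cyclin A and CDK2 arm (median 0.20), 6 of 11 for G2 and mitosis (median 0.05), 9 of 16 for turnover (median 0.09) and 7 of 10 for p53 targets (median 0.26). They were 1 of 5 for the other inhibitors and pocket proteins (median -0.35), 3 of 7 for E2F and DP factors (median -0.29) and 3 of 8 for regulators of D cyclin transcription (median -0.16). Each limma adjusted p in this comparison was 1.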

How the data were processed

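Total RNA of 12 samples was hybridised with an embryonic reference, and the authors deposited 1 value per spot and array. The deposited values (-14.6 to 18.2) were read as log2 ratios, a base inferred from the range, which the authors adjusted with a Lowess curve (50% of the points in each fit) and a control channel held at 200 or more, per the labels and series text. For scanner and background method, nothing was found in the labels. Of 23040 spots, 902 controls were left out, and the sign was turned by the embryo-tissue check. Each array was centred on the median of 11245 spots with a value on all 12 arrays. Spots with at least 2 of 3 values per group (16063) were fitted with limma 3.58.1 in R 4.3.3 (4 group means, no block, Benjamini-Hochberg within each of 7 comparisons, threshold 0.05). Missing arrays were dropped for a spot. The fit was also run on simulated differences. Array number limits the precision.

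Symbols come from the platform annotation, of which 16720 spots had 1, 142 several and 5276 none. Sequences and positions are RefSeq's on GRCm38.p6. Members, gene lists and tests were chosen with earlier results of these data known. Pathway genes were named by the smallest unadjusted p, 3 on each side of each averaged comparison. Marker lists for other cell types were set beside the members.

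Arrays of a letter carry the same red dye value in the labels (19.3 for b, 19.8 for c and 17.9 for d, in bp per dye molecule), so the pairing by letter comes from the labels. Deviations from group means correlated at 0.043 to 0.266 within a letter (median 0.148). Between arrays of another letter and another group the median was -0.067. The deviations in a group cancel by construction, so the second median largely follows from the first and is no separate support for the pairing. The replicate block, centring, quantile normalization, filters, dye incorporation and leaving out arrays were alternatives.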

Additional observations from a re-analysis of the deposited data

How the results depend on the processing

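Arrays could be scaled, filtered or left out in 27 other ways, one of them (centring on all spots with a value) chosen after seeing the data. The number of spots past the limma threshold was 0 under each of them in every comparison other than NLS minus WT averaged over both GH numbers. There the single spot was lost, leaving 0, with the letter as a fixed replicate block (as a random block the count was 1), on the deposited scale without centring (with and without the block), with quantile normalization, with values on all 12 arrays or at least 1 value per group, with spots of one gene averaged, with dye incorporation as a covariate and with the added centring. Leaving out arrays gave 0 to 1, and the cause was not tested. The pairing by letter changed no call of a G1 regulator: with the block the limma adjusted p of Ccnd3 in the average was 0.498, against 0.843 without it. Of 63 differences of the 9 G1 regulator spots, 27 kept their sign under every alternative run, among them Ccnd3 in the average (-1.39 to -0.94), Cdkn1a for NLS minus WT at 1GH (1.24 to 4.16) and Cdkn1a for 1GH minus 0GH in WT (-3.09 to -1.61). Of 1652 recomputed differences 29 moved by more than 1 SD between replicates. Many alternatives cannot change a given difference, such as leaving out an array of a group that it does not use. Neither count is therefore a measure of stability. The NM_009829 spot of Ccnd2 ranged from -1.02 to 1.49 for NLS minus WT in the average. Signal over background is not given for these spots, so what brightness limits is unknown.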

Other observations

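Spots whose pattern over the 12 arrays was most like that of a D cyclin were ranked by Pearson's r among 9190 spots, after the mean of each letter was removed. For Ccnd3 these were Gabarap (r = 0.956), Glrx (r = 0.92) and Gt4-1 (r = 0.918). For the AK011429 spot of Ccnd2 they were S100a11 (r = 0.917), Zfp672 (r = 0.892) and Fbln1 (r = 0.887). The arrays share a reference, a scale and the 4 groups, and the highest r of 9190 are high by selection, so these are descriptions.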
